A study of Mus musculus with 23 samples.

Results

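The small intestines of busulfan-treated mice given a fecal microbiota transplant from undosed donors (Con-FMT) were compared with those of busulfan-treated mice given saline (Sa). RNA-seq had been run in 2 sets of libraries, and the comparison described here used the 6 libraries of set 2 whose labels name Sa or Con-FMT, 3 in each group, out of 23 in the series. By the study's methods the recipients were outbred ICR males that received 1 dose of busulfan, an alkylating agent that damages dividing cells, at 40 mg/kg body weight and 3 weeks of age, and were given saline or transplant by gavage from the next day on. Every group, Sa included, therefore carried the busulfan injury, and no uninjured group was among the libraries. Con-FMT material was the luminal content of the small intestine of mice dosed with water only. In A10-FMT and A100-FMT, 3 further set 2 libraries each, the donors had been dosed with alginate oligosaccharides (AOS) at 10 or 100 mg/kg. Donor contents were pooled within a donor group, so the 3 Con-FMT libraries share 1 inoculum. The labels do not say whether libraries came from separate animals, so the p-values given here measure the spread between these libraries.

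Interferons are signalling proteins that epithelial and immune cells release on sensing microbes. The type I and type III interferons act through the ISGF3 complex on promoters that carry an interferon-stimulated response element (ISRE), and interferon gamma acts on gamma-activated sites (GAS). Their targets encode proteins that bind or degrade foreign RNA, guanylate-binding proteins and GTPases that attack the vacuoles of intracellular microbes, and the machinery of antigen presentation. In the small intestine the resident bacteria and viruses keep some of these genes active in the unchallenged epithelium, and Paneth cells at the crypt base add alpha-defensins and other secreted antimicrobials.

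Epithelial markers were abundant in the libraries. Krt8, a keratin of simple epithelia, was listed at 2282.62 to 2693.76 FPKM (fragment counts scaled to transcript length and library total) over the 6 libraries and Epcam, an epithelial adhesion molecule, at 954.38 to 1049.64 FPKM. Many markers of the muscular wall, the stroma, macrophages, B cells and the pancreas were at or near 0 in all 6: none of Acta2, Actg2, Myh11, Des, Col1a1, Pdgfra, Pecam1, Adgre1, Csf1r, Ms4a1, Cd79a, Amy2a5 and Prss2 was above 0.17 FPKM. Those lists were not empty, since 2 members of each passed the filter on low values: Smtn and Tagln averaged 7.88 and 1.29 FPKM in Sa, Vim and Lyve1 2.32 and 2.85 FPKM, Cd79b and Sdc1 1.32 and 45.7 FPKM, and Reg1 and Cela1 313 and 4.21 FPKM. In the myeloid list Itgam, at 5.72 FPKM in Sa, passed with Ptprc. The pancreatic list summed to 318 FPKM in Sa, the B and plasma cell list to 48.4 FPKM and the smooth muscle list to 10.1 FPKM, in each case mostly from the most abundant of these genes. Sdc1 is also an epithelial proteoglycan. The 6 libraries summed to 556466 to 580903 FPKM. Their absolute read depth is unknown, but the smallest steps between FPKM values of rarely detected genes put their relative depths between 0.914 and 1.03 of the average of the set.

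Con-FMT was compared with Sa by limma on log2(FPKM + 1) in a fit that shared 1 estimate of the spread over the 12 libraries of set 2, for the 11351 genes whose average reached 1 FPKM. At a Benjamini-Hochberg adjusted p under 0.05, 11 genes rose in Con-FMT (0.0969% of those tested) and 0 fell (0.0%). At an unadjusted p under 0.05 there were 556 genes higher (4.9%) and 704 lower (6.2%). Every Con-FMT value lay above every Sa value for 716 genes (6.31%) and below for 1245 (11.0%), and under a scaling by a trimmed mean that split became 945 to 986. A ratio of group means of at least 2, with 1 FPKM added to both, was found for 51 genes higher (0.449%) and 27 lower (0.238%), and without Con-FMT 3 the split turned to 38 higher and 44 lower. The median change of all genes tested was -0.014 on the log2 scale.

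The count of called genes rested on every Con-FMT library. Without Con-FMT 1, Con-FMT 2, Con-FMT 3 or Sa 3, limma called 0 genes, beside 1135, 1205, 1123 and 1062 genes at an unadjusted p under 0.05, while 5 remained past the threshold without Sa 1 and 2 without Sa 2, of which 2 and 1 were among the 11. With the Sa and Con-FMT libraries fitted alone, 6 genes passed, 2 of them among the 11. All 11 stayed higher in Con-FMT whichever library was left out.

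Of the 11, 2 (Gbp2 and Gm2446) averaged under 1 FPKM in Sa and passed the filter on low values only through groups in which they were higher, so their calls support nothing, as for 114 of all genes tested that averaged under 1 FPKM in Sa. Trim30a, Parp12, Oas3, Ifit2 and Irgm1 belong to the antiviral and GTPase lists of interferon genes. Those lists hold 61 and 15 of the 11351 genes tested. Gbp2 belongs to the GTPase list too, but its call is not counted. Trim30a, a ring-finger protein induced by interferon, was at 26.72, 26.45 and 27.28 FPKM in Sa 1, 2 and 3 and at 39.11, 41.24 and 41.92 FPKM in Con-FMT 1, 2 and 3, a log2 change of 0.59 (SE 0.069, limma adjusted p = 0.0234). Parp12, an ADP-ribosyltransferase that restrains viral translation, rose from 56.57, 56.42 and 57.65 FPKM to 72.58, 74.38 and 70.70 FPKM (log2 change 0.35, SE 0.043, limma adjusted p = 0.0234). The groups of both genes were separated by far more than their own spread. Oas3, an oligoadenylate synthetase that switches on RNase L when it meets double-stranded RNA, rose from 37.04, 33.48 and 35.25 FPKM to 47.59, 51.43 and 50.07 FPKM (0.48, SE 0.068, limma adjusted p = 0.0425). Ifit2, which belongs to a family that binds foreign RNA, rose from 16.83, 13.98 and 15.06 FPKM to 46.08, 34.42 and 31.52 FPKM (1.22, SE 0.18, limma adjusted p = 0.0453). The lowest Con-FMT library stood well above the highest Sa library for Ifit2, and Con-FMT 1 was the highest of all.

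The other pair encode interferon-inducible GTPases. Irgm1, a regulator of the GTPases that gather on pathogen vacuoles and of autophagy, was at 79.49, 88.17 and 81.19 FPKM in Sa and at 131.16, 116.16 and 107.50 FPKM in Con-FMT (log2 change 0.50, SE 0.072, limma adjusted p = 0.0425). Gbp2, a guanylate-binding protein, was scarce, at 0.58, 0.50 and 0.62 FPKM in Sa and 1.72, 1.69 and 1.37 FPKM in Con-FMT (0.73, SE 0.11). On the log2(FPKM + 1) scale the change of so low a gene is understated, and the ratio of its group means was 2.81. Neither gene had a Con-FMT library at or below a Sa library. Just outside the threshold lay Ifit1, another RNA-binding member of the Ifit family named after its values were seen, at 44.60, 44.28 and 45.36 FPKM in Sa and 59.06, 65.63 and 62.09 FPKM in Con-FMT (0.47, SE 0.074, limma adjusted p = 0.0505).

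**Figure D1:**
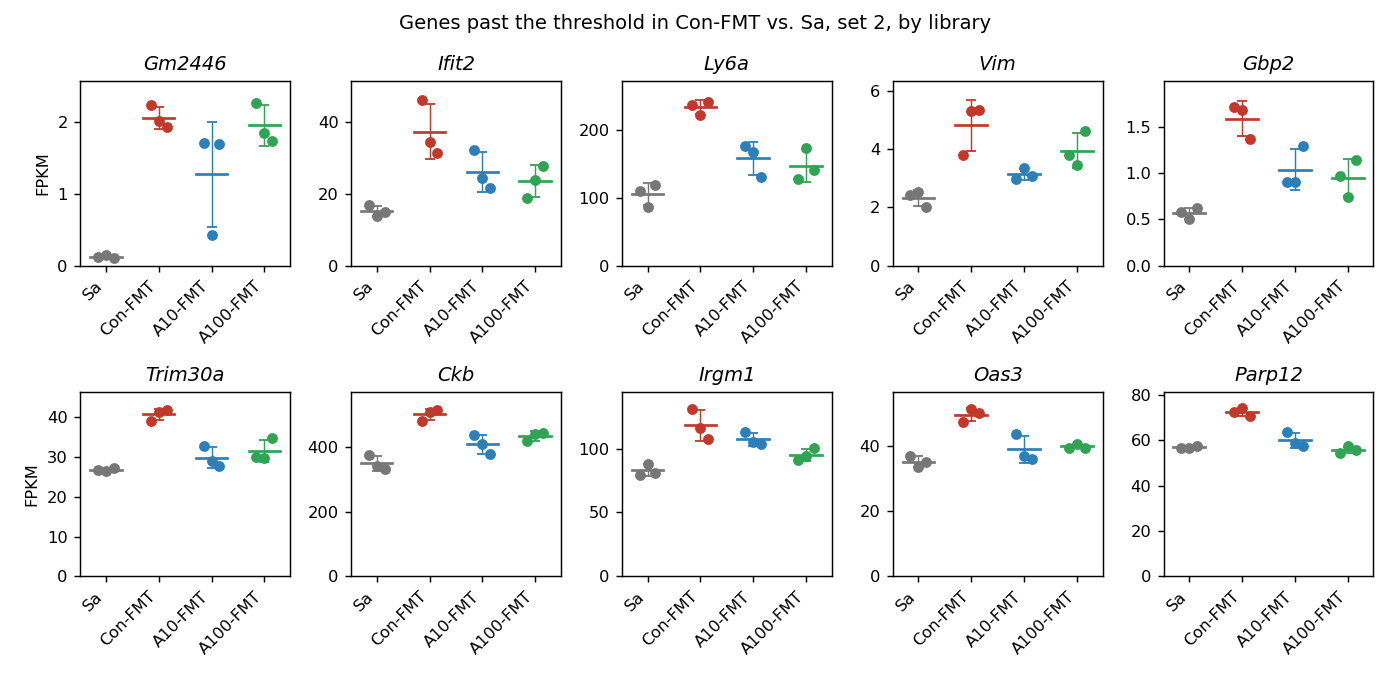
FPKM of the 10 named genes that passed the threshold in Con-FMT vs. Sa of set 2, with 1 point per library and the mean and SD of each group of 3 as a line and bars. In every panel the 3 Con-FMT points lie above the 3 Sa points, as for Parp12, where Con-FMT ranged from 70.70 to 74.38 FPKM and Sa from 56.42 to 57.65 FPKM.

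The promoters of these genes are printed to show the response element that interferon signalling uses. RefSeq sequence of assembly GRCm38.p6, the build the submitters name as mm10, held a promoter for 8 of the 11 genes, and the 250 bases before each start site were searched on both strands for the ISRE letters TTTCNNTTTC and the GAS letters TTCNNNGAA. The ISRE letters were found at 4 of the 8: Irgm1, Oas3, Trim30a and Gbp2. The share was 3.46% of 27025 promoters in the table and 3.31% of the 8613 tested genes with a promoter. Gbp2 is in both the 4 and the 8 although its call is not counted, so nothing is read from that share. The GAS letters were found at 1 of the 8, Ifit2, against 7.12% of the tested genes. The 4 stretches follow, 5′ to 3′ on the gene's strand, with the match, or its reverse complement, in capitals.
Gbp2, chr3:142620559-142620658, plus strand: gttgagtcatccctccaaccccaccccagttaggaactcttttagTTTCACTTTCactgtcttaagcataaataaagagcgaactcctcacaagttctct
Irgm1, chr11:48871421-48871520, minus strand: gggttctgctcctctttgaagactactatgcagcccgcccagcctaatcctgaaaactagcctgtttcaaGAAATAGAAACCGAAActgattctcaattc
Oas3, chr5:120777680-120777779, minus strand: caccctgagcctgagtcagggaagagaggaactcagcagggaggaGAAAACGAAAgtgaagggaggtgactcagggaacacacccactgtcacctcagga
Trim30a, chr7:104465194-104465293, minus strand: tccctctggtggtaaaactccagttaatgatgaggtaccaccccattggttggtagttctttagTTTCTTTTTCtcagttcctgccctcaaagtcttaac
The matches began 59, 75 and 36 bases before the start sites of Gbp2, Oas3 and Trim30a, and Irgm1 held 2 overlapping matches that began 30 and 24 bases before its start site. Trim30a has 2 annotated starts, and the other held no match. No ISRE match lay in the window of Ifit2, Parp12, Ckb or Vim, and Ly6a and Gm2446 had no entry. A match describes the letters only.

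Most of the interferon-stimulated antiviral genes were higher by value in Con-FMT. Of its 65 members with values 61 were tested. Among these 1 had a Sa mean under 1 FPKM and supports nothing. Of the 61, 4 rose past the threshold (Trim30a, Parp12, Oas3 and Ifit2) and 0 fell, against 0.0969% and 0.0% of all genes tested. Higher by value were 57. Its median log2 change was 0.34, beside -0.014 for all genes tested. At an unadjusted p under 0.05 there were 52 members higher (85.2%) and 0 lower, against 4.9% and 6.2% of all genes, and 50 members had groups that did not overlap (82.0%), all with Con-FMT on top, against 6.31%. The summed level of the list was 4810 ± 159 FPKM in Sa and 6120 ± 206 FPKM in Con-FMT (SD, n = 3), a ratio of 1.27. Members share regulators and are not independent of each other, so these counts describe the list.

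The members varied in level and in change. Lgals9, a galectin and the most abundant member, was at 855.08, 898.38 and 884.17 FPKM in Sa and at 1027.61, 1008.25 and 1009.93 FPKM in Con-FMT, a small log2 difference of 0.21 (SE 0.062, limma adjusted p = 0.278). Ifi27l2a, named after its values were seen, had the widest difference, at 72.80, 38.63 and 49.02 FPKM against 117.36, 161.92 and 175.65 FPKM (1.51, SE 0.31, limma adjusted p = 0.115). Both had groups that did not overlap without passing the adjusted threshold. Ifi47, an interferon-induced GTPase gene also named after its values were seen, went against the list through 1 library, at 10.80, 20.21 and 17.55 FPKM in Sa and 30.24, 1.20 and 33.91 FPKM in Con-FMT. Without Con-FMT 2 its log2 change went from -0.32 to 0.99.

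**Figure D2:**
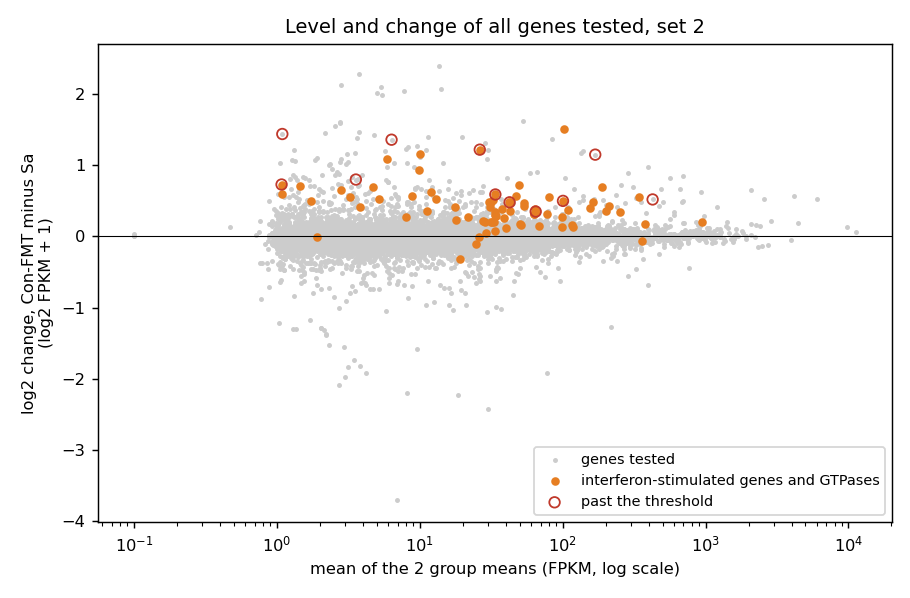
Log2 change of Con-FMT minus Sa (log2 FPKM + 1, vertical axis) against the mean of the 2 group means (FPKM, log axis) for each of the 11351 genes tested, with interferon-stimulated antiviral genes and GTPases in orange and the 11 genes past the threshold ringed. Of the orange points 57 of 61 antiviral genes and 14 of 15 GTPases sit above 0, over the whole range of levels, while all genes tested centre on a median of -0.014.

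Among the interferon-inducible GTPases 14 of 15 tested members were higher by value, with a median log2 change of 0.52; 3 of the 18 with values were not tested, and 2 of the 15 averaged under 1 FPKM in Sa. Those 2, Gbp2 among them, passed the filter on low values only through higher groups and support nothing. Irgm1 was past the threshold, as was Gbp2 (0.0969% of all genes were), and no member fell. With those 2 kept among the 15, 13 members were higher at an unadjusted p under 0.05 (86.7%, against 4.9% of all genes). Groups did not overlap for 12 (80.0%, against 6.31%). Gbp3 was at 3.81, 4.16 and 4.18 FPKM in Sa and 6.69, 6.81 and 5.46 FPKM in Con-FMT (log2 0.53, SE 0.092, limma adjusted p = 0.072). Tgtp1, a GTPase of T cells and epithelia named after its values were seen, was at 6.17, 5.94 and 5.06 FPKM against 19.24, 15.27 and 9.14 FPKM (1.16, SE 0.23, limma adjusted p = 0.0974). Tgtp1 has a near-identical neighbour, Tgtp2, and reads may have been split between them. In both genes Con-FMT 3 was the lowest Con-FMT library, as it was for the mean of the list, at 0.746, 0.611 and 0.427 above the Sa mean (mean log2 difference) in Con-FMT 1, 2 and 3.

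Promoters were searched for this list and for the antiviral list, the only other list searched. The difference between the lists was not tested. Tgtp1 and Igtp are shown because both elements stand side by side. Each of the 9 members with a RefSeq promoter, Gbp2 among them, held the ISRE letters. The GAS letters were found at 6 of the 9 (66.7%, against 8.13% of all promoters). In the antiviral list the shares were 37.5% of 48 for ISRE and 16.7% for GAS. Capitals mark the GAS match, then the ISRE match in reverse complement, with 2 bases between them.
Tgtp1, chr11:48992269-48992368, minus strand: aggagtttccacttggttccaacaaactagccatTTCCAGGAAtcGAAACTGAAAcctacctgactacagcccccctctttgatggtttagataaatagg
Igtp, chr11:58199456-58199555, plus strand: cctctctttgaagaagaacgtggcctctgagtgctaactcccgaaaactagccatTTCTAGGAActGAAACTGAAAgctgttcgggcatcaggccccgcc
The ISRE matches began 77 and 34 bases before the start sites of Tgtp1 and Igtp, and the GAS matches 88 and 45 bases before them. Several of these GTPases are close copies of each other, so their shared letters are not independent.

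All 5 tested Schlafen genes, interferon-responsive regulators of growth and of viral replication, were higher by value, each at an unadjusted p under 0.05 (against 4.9% of all genes) and none past the adjusted threshold, with a median log2 change of 0.42. Slfn8, 1 of the 5, averaged under 1 FPKM in Sa and supports nothing. Slfn4 was at 4.71, 5.68 and 4.83 FPKM in Sa and 12.46, 11.05 and 18.36 FPKM in Con-FMT (1.27, SE 0.26, limma adjusted p = 0.106). Slfn2, the most abundant, was at 38.37, 33.57 and 39.47 FPKM against 52.37, 53.31 and 54.37 FPKM (0.51, SE 0.13, limma adjusted p = 0.205). The groups did not overlap for either gene, though they did for Slfn5 (16.28, 11.42 and 13.77 FPKM against 21.01, 19.58 and 15.78 FPKM).

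Antigen presentation was divided. In the MHC class I list, with the immunoproteasome and peptide loading, 22 of 29 tested members were higher by value, 6 of them at an unadjusted p under 0.05 (20.7%, against 4.9% of all genes), and 1 was lower at that p (3.45%, against 6.2%), with none past the adjusted threshold and a median of 0.10. Ubd, a ubiquitin-like modifier induced by interferon gamma and tumour necrosis factor, stood out at 9.88, 10.39 and 10.44 FPKM in Sa and 25.45, 38.15 and 23.94 FPKM in Con-FMT (1.40, SE 0.24, limma adjusted p = 0.0695). H2-D1, a classical class I heavy chain whose reads may be shared with close copies, was at 818.54, 1125.99 and 1136.07 FPKM against 1291.29, 1371.04 and 1415.09 FPKM (0.42, SE 0.11, limma adjusted p = 0.227), and B2m, its light chain, at 1231.99, 1300.01 and 1379.85 FPKM against 1499.91, 1520.04 and 1508.43 FPKM. The groups of all 3 genes did not overlap. The MHC class II list did not share the direction: 2 of 8 members were higher by value, none had an unadjusted p under 0.05, and Cd74, the invariant chain, was at 640.61, 701.90 and 597.65 FPKM in Sa and 614.90, 601.68 and 601.95 FPKM in Con-FMT.

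The 5 remaining called genes do not belong to those lists. Ly6a (Sca-1), a surface protein of stem and activated cells that interferon can induce, rose evenly over the Con-FMT libraries, from 110.04, 86.90 and 118.86 FPKM to 236.75, 221.41 and 241.22 FPKM (log2 change 1.15, SE 0.15, limma adjusted p = 0.0234). Ckb, the brain-type creatine kinase that buffers ATP in epithelium, rose from 375.97, 340.98 and 332.51 FPKM to 481.08, 509.72 and 514.50 FPKM (0.52, SE 0.063, limma adjusted p = 0.0234). Vim, an intermediate filament of mesenchymal and immune cells, rose from 2.41, 2.54 and 2.02 FPKM to 3.81, 5.30 and 5.34 FPKM (0.80, SE 0.12, limma adjusted p = 0.0453). None of the 3 had overlapping groups, and Vim was lowest in Con-FMT 1 among the Con-FMT libraries. Lyve1, the only other tested member of the stroma and vessels list, went the other way (log2 -0.338). It was lower at an unadjusted p under 0.05 and without overlap.

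Gm2446 and a transcript with a BGI identifier only complete the called genes. Gm2446 was nearly absent in Sa, at 0.12, 0.15 and 0.10 FPKM, and was listed at 2.23, 2.01 and 1.93 FPKM in Con-FMT (log2 change 1.44, SE 0.20). Its annotated neighbour on chromosome 12, Gm2436, ran the other way, at 2.09, 2.25 and 2.44 FPKM in Sa and 0.67, 0.10 and 0.25 FPKM in Con-FMT (-1.30, SE 0.22, limma adjusted p = 0.072). Gm2436 lies at chr12:55141072-55154918 and Gm2446 at chr12:55216136-55229982, and how reads were divided between them is not given in the sources used here, so both values are uncertain. The BGI transcript, BGI_novel_G001431, rose from 4.19, 2.28 and 3.01 FPKM to 9.33, 10.15 and 9.10 FPKM (1.36, SE 0.14, limma adjusted p = 0.0197).

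**Figure D3:**
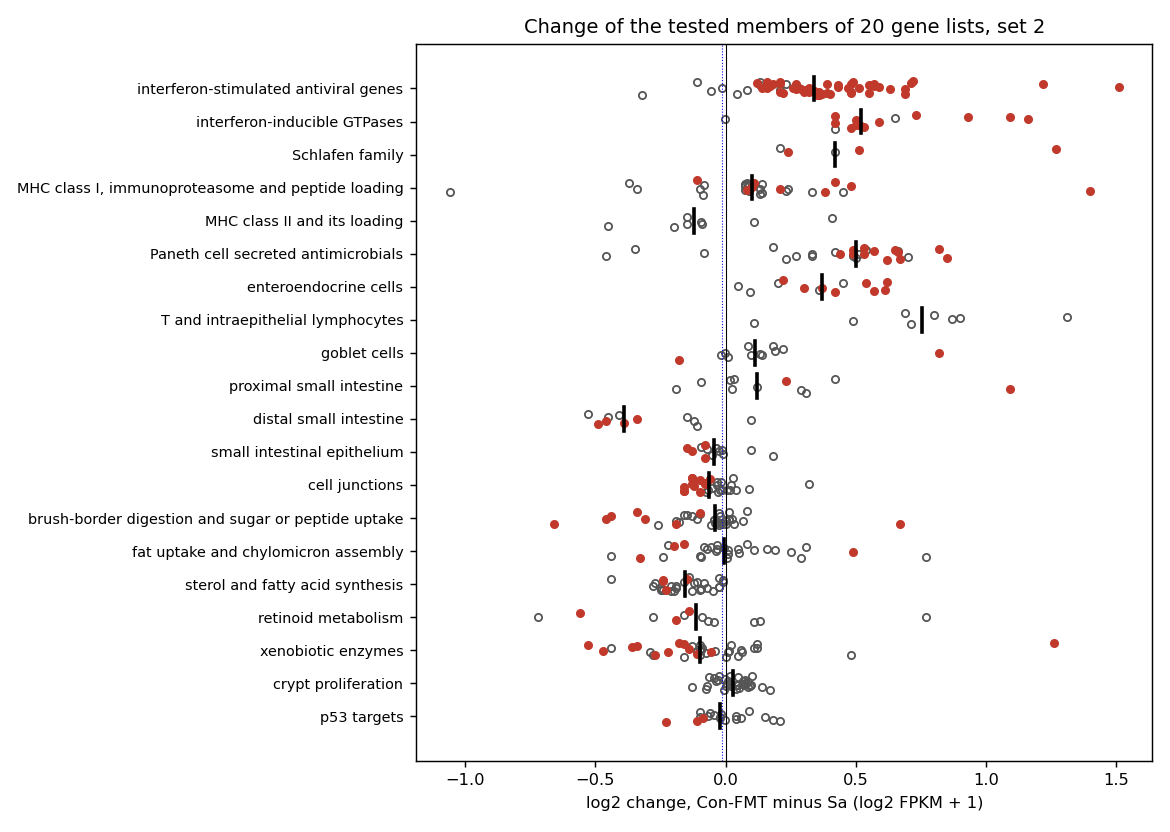
Log2 change of Con-FMT minus Sa (log2 FPKM + 1) for the tested members of 20 gene lists, 1 point per gene, filled where the groups did not overlap, with a black bar at the list's median and a dotted line at the median of all genes (-0.014). The interferon-stimulated, GTPase, Schlafen, Paneth cell, enteroendocrine and T cell lists lie to the right, at medians of 0.34, 0.52, 0.42, 0.50, 0.37 and 0.75, and the distal list to the left at -0.39.

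In the Paneth cell list, most of whose members encode antimicrobials, 24 of 27 tested members were higher by value, with a median log2 change of 0.50. A few members are not antimicrobials and are included in these counts. The list mean on the log2 scale crossed between the groups. It lay at 0.902, -0.141 and -0.762 from the Sa mean in Sa 1, 2 and 3. In Con-FMT 1, 2 and 3 it lay at -0.082, 0.31 and 1.062, so that Sa 1 was above Con-FMT 1 and 2. The summed level, in which the most abundant members weigh most, did not overlap. It was 23300, 18300 and 14000 FPKM in Sa and 25900, 25200 and 28900 FPKM in Con-FMT. No member passed the adjusted threshold. At an unadjusted p under 0.05, 11 members were higher and 0 lower (40.7%, against 4.9% of all genes higher). Groups did not overlap for 12 members (44.4%, against 6.31%). Defa24 was at 3991.44, 3400.17 and 2670.90 FPKM in Sa and 4940.89, 4756.54 and 5095.91 FPKM in Con-FMT (0.57, SE 0.15, limma adjusted p = 0.21). Ang4, an angiogenin with bactericidal activity, was at 560.33, 375.78 and 305.41 FPKM against 742.67, 676.71 and 707.96 FPKM (0.82, SE 0.24, limma adjusted p = 0.268), and Lyz1, the Paneth cell lysozyme and named after its values were seen, at 1977.18, 1857.37 and 1128.44 FPKM against 2428.93, 2366.65 and 2794.53 FPKM. In all 3 genes Sa 3 was the lowest library. In bulk RNA, fewer cells of a type and less RNA per cell cannot be told apart.

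The alpha-defensins did not behave as 1 group. Of 20 tested Defa genes, 8 had a highest value more than 5 times the lowest over the 6 libraries, and in each of the 8 the highest pair of libraries were Sa 1 and Con-FMT 3. Defa42 was at 969.72, 44.52 and 5.0 FPKM in Sa and 0.68, 68.33 and 881.41 FPKM in Con-FMT, and Defa20 at 589.30, 69.64 and 31.05 FPKM against 65.52, 78.82 and 602.19 FPKM; both were named after their values were seen. This pattern crossed the treatment groups. The other defensins varied less, as in Defa31, the most abundant, at 4689.32, 5604.48 and 4556.46 FPKM against 7872.22, 7552.46 and 6115.46 FPKM. Defensin genes are close copies of each other, so their separate values are uncertain.

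**Figure D4:**
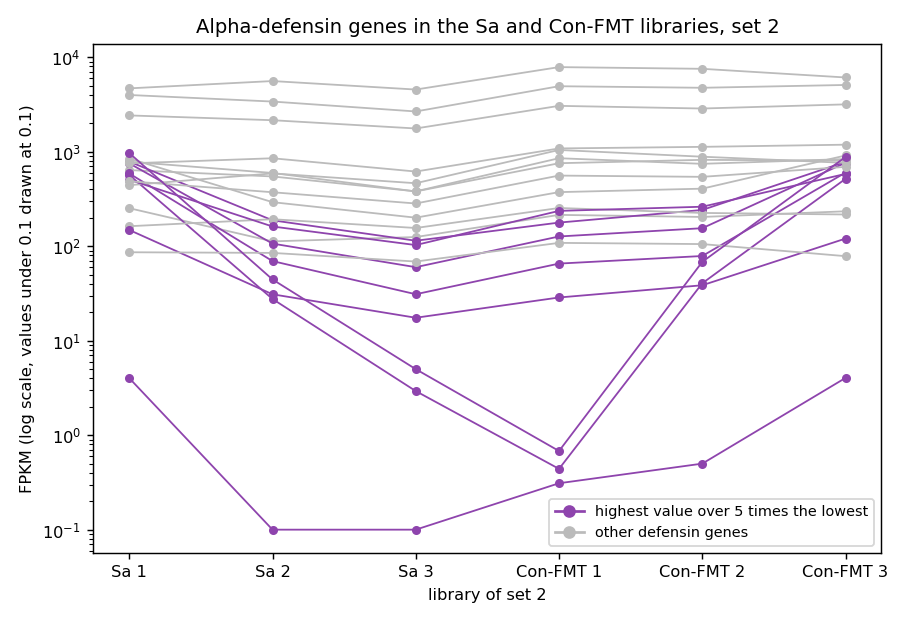
FPKM (log axis) of the 20 tested alpha-defensin genes in each Sa and Con-FMT library of set 2, 1 line per gene joining its values, with the 8 genes whose highest value is more than 5 times the lowest in purple. The purple genes are high in Sa 1 and Con-FMT 3 and low in the libraries between, Defa42 reaching as low as 0.68 FPKM in Con-FMT 1, whereas the grey genes vary less; the order of replicates has no meaning.

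Hormones and granule proteins of enteroendocrine cells were higher by value in all 13 tested members, with a median log2 change of 0.37 and no member past the adjusted threshold. Neurod1, 1 of the 13, averaged under 1 FPKM in Sa and supports nothing. At an unadjusted p under 0.05 there were 7 higher (53.8%, against 4.9% of all genes) and 0 lower, and 8 did not overlap (61.5%, against 6.31%). Cck, cholecystokinin of the proximal gut, lay just outside the threshold at 16.41, 22.93 and 22.76 FPKM in Sa and 33.00, 31.69 and 31.25 FPKM in Con-FMT (0.62, SE 0.099, limma adjusted p = 0.0505). Gcg, the glucagon and GLP precursor of the distal gut, was at 13.84, 15.21 and 12.88 FPKM against 25.98, 19.29 and 20.70 FPKM (0.61, SE 0.16, limma adjusted p = 0.21). The groups did not overlap for either hormone, one typical of the upper and one of the lower bowel, nor for Chgb, a granule protein, at 24.25, 23.28 and 24.63 FPKM against 27.53, 30.0 and 32.37 FPKM. The list mean was even over the Con-FMT libraries, at 0.344, 0.353 and 0.412 above the Sa mean on the log2 scale.

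The tested markers of T cells were also higher by value. Of the B and plasma cell list Cd79b and Sdc1 differed by -0.047 and -0.039 in log2. The myeloid list had 2 tested members, Itgam, which differed by -0.16, and Ptprc, which averaged under 1 FPKM in Sa and supports nothing. Of 22 markers of T and intraepithelial lymphocytes with values, 8 were tested; all 8 were higher by value, 4 at an unadjusted p under 0.05 (against 4.9% of all genes), with a median log2 change of 0.75 and overlapping groups throughout. Gzmb, a granzyme of cytotoxic cells, was at 10.99, 13.56 and 21.85 FPKM in Sa and 21.41, 46.48 and 56.23 FPKM in Con-FMT (1.31, SE 0.40, limma adjusted p = 0.28). Gzma, the most abundant marker, was at 36.50, 32.74 and 63.45 FPKM against 42.11, 94.80 and 128.10 FPKM, and Cd3e, of the T cell receptor complex, at 0.66, 1.27 and 1.34 FPKM against 1.14, 2.79 and 3.74 FPKM. Con-FMT 2 and 3 were high while Con-FMT 1 lay among the Sa libraries. The summed level of the list was 85.0, 87.4 and 158 FPKM in Sa and 94.2, 222 and 305 FPKM in Con-FMT. The interferon-stimulated list was as high in Con-FMT 1 as in the other two, at 0.368, 0.333 and 0.376 above the Sa mean in log2, against -0.123, 0.965 and 1.365 for the T cell markers.

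**Figure D5:**
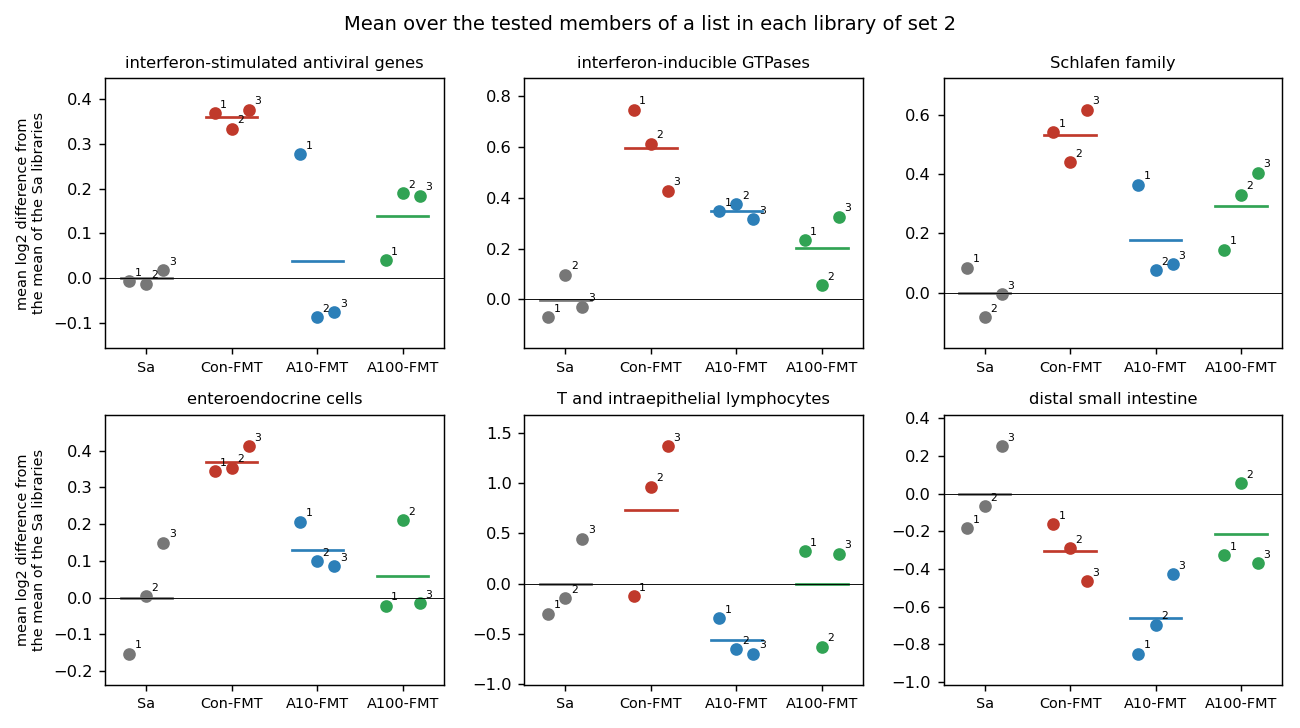
Mean log2 difference (log2 FPKM + 1) from the mean of the Sa libraries over the tested members of 6 lists, 1 point per library of set 2 with its replicate number and a line at the group mean. In the interferon-stimulated list the 3 Con-FMT points lie within 0.333 to 0.376, and in the T cell list they spread from -0.123 to 1.365.

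Ptprc, the pan-leukocyte CD45, was at 0.44, 0.47 and 0.90 FPKM in Sa and 1.02, 1.93 and 2.70 FPKM in Con-FMT, and Mcpt1, a protease of mucosal mast cells, at 1.09, 0.53 and 0.64 FPKM against 2.25, 4.11 and 7.95 FPKM. Hba-a1, an alpha-globin whose near-identical copy makes its value uncertain, was at 2.78, 1.25 and 0.83 FPKM against 32.44, 4.37 and 5.05 FPKM, with Con-FMT 1 far above the rest, and Hbb-b1 at 1.32, 0.00 and 0.35 FPKM against 7.80, 2.08 and 1.43 FPKM. Ptprc, Mcpt1 and Hbb-b1 averaged under 1 FPKM in Sa and passed the filter on low values only through groups where they were higher, so their values support nothing. Alas2, the erythroid enzyme of heme synthesis, stayed at or below 0.07 FPKM. The third tested red cell gene, Bpgm, of red cell glycolysis, differed by 0.11 in log2. The part of the T cell markers in the results was not tested.

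No gene fell past the adjusted threshold. Among genes lower in Con-FMT without overlap, Slc34a3, a sodium-phosphate cotransporter, was at 2.23, 6.45 and 7.53 FPKM in Sa and 0.06, 0.23 and 1.60 FPKM in Con-FMT (log2 -1.97, SE 0.52, limma adjusted p = 0.21). Scpep1, a serine carboxypeptidase, was at 8.65, 0.51 and 6.68 FPKM against 0.07, 0.17 and 0.16 FPKM, so that Sa 2 lay close to Con-FMT. Alppl2, an alkaline phosphatase with close copies, was at 5.19, 5.47 and 4.18 FPKM against 3.22, 2.82 and 2.28 FPKM (-0.66, SE 0.12, limma adjusted p = 0.0773), without overlap. The closest to the threshold were Acnat1, an acyltransferase that conjugates amino acids, and Cnnm4, a magnesium transporter of the basolateral membrane, both named after their values were seen. Acnat1 was at 10.31, 10.16 and 9.97 FPKM in Sa and 7.31, 8.14 and 7.65 FPKM in Con-FMT (-0.36, SE 0.057, limma adjusted p = 0.0505), and Cnnm4 at 58.65, 59.76 and 56.37 FPKM against 49.57, 48.05 and 48.83 FPKM (-0.25, SE 0.04, limma adjusted p = 0.0505). Both passed where a mean of 5 FPKM was required, at adjusted p = 0.045 in limma, and with array quality weights, at 0.034 and 0.024. Among genes with a symbol, the others of the 12 with the widest lower values without overlap at an unadjusted p under 0.05 ran from -0.63 to -0.96 in log2: H2ac12, a histone; Dio1, a deiodinase that activates thyroid hormone; Gm43305; Gsn, the actin-severing gelsolin; Rprml; Pbld1; Acot13, an acyl-CoA thioesterase; and Sgk1, a kinase induced by glucocorticoids.

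The genes that join epithelial cells were lower by value, by little. In the cell junction list 7 of 30 tested members were higher and 23 lower, with a median log2 change of -0.065; none passed the adjusted threshold, 8 were lower at an unadjusted p under 0.05 (26.7%, against 6.2% of all genes) and 13 did not overlap (43.3%, against 11.0% of all genes lower without overlap). With each library's sum rounded to 3 digits, the list summed to 4830, 4850 and 4850 FPKM in Sa. In Con-FMT it summed to 4660, 4650 and 4690 FPKM, a ratio of group means of 0.964. Marveld2, or tricellulin, of the corners where 3 cells meet, was at 21.85, 20.45 and 20.11 FPKM in Sa and 19.14, 18.92 and 18.54 FPKM in Con-FMT (-0.13, SE 0.044, limma adjusted p = 0.317), and Cgn, or cingulin, of the tight junction plaque, at 38.86, 39.12 and 38.44 FPKM against 34.78, 36.17 and 36.05 FPKM.

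The study stained or blotted 12 proteins, most of them junction proteins, and 10 of their genes were tested. Of these 3 were higher by value and 7 lower, none had an unadjusted p under 0.05, and the log2 changes ran from -0.129 to 0.0486. Tjp1, which encodes ZO-1, was at 22.16, 23.56 and 21.05 FPKM in Sa and 19.87, 20.20 and 20.66 FPKM in Con-FMT (-0.13, SE 0.083, limma adjusted p = 0.605), and Cdh1, E-cadherin, at 257.93, 261.76 and 252.48 FPKM against 247.42, 249.54 and 234.49 FPKM. Ocln, occludin, was at 37.47, 36.52 and 34.33 FPKM against 31.43, 35.63 and 35.42 FPKM, with overlapping groups. Vil1, villin of the microvilli, was at 687.84, 739.97 and 707.02 FPKM against 640.26, 720.89 and 741.39 FPKM, and the 95% interval of the group difference was -0.15 to 0.097 in log2.

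Absorptive functions gave differences in both directions, with small medians. In log2 the brush-border members ran from -0.657 (Alppl2) to 0.668 (Tmprss15). Those of fat uptake ran from -0.443 to 0.765 (Scarb1). Of 37 brush-border genes 11 were higher by value, with a median of -0.041, 1 gene higher (2.7%, against 4.9% of all genes) and 6 lower (16.2%, against 6.2%) at an unadjusted p under 0.05. Xpnpep2, a brush-border aminopeptidase, was at 34.59, 42.65 and 45.30 FPKM in Sa and 27.40, 31.63 and 30.16 FPKM in Con-FMT (log2 -0.44, SE 0.11, limma adjusted p = 0.188). The fat uptake list had a median of -0.0058 over 29 genes, and Apoa1, its most abundant member and the main HDL apolipoprotein, overlapped at 1838.91, 2180.27 and 2404.93 FPKM against 2030.64, 2413.91 and 2763.82 FPKM. All 30 tested genes of sterol and fatty acid synthesis were lower by value, with a median of -0.15, 5 at an unadjusted p under 0.05 (16.7%, against 6.2% of all genes) and none past the adjusted threshold. Stard4, a sterol carrier, was at 51.43, 52.51 and 53.12 FPKM against 46.37, 43.72 and 42.48 FPKM (-0.24, SE 0.076, limma adjusted p = 0.293), and Mvk, mevalonate kinase, at 26.88, 24.27 and 25.23 FPKM against 23.19, 21.82 and 19.35 FPKM. Neither gene overlapped. In all 4 members of the list did not (13.3%, against 11.0% of all genes), a share near that of all genes, and the list's summed level overlapped.

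Markers of position along the bowel also differed by value. Of 11 markers of the distal small intestine 10 were lower by value, with a median log2 change of -0.39 and 4 lower at an unadjusted p under 0.05 (36.4%, against 6.2% of all genes). Fabp6, the ileal bile acid binding protein, was at 763.21, 724.28 and 1128.25 FPKM in Sa and 960.15, 529.88 and 479.29 FPKM in Con-FMT, with overlapping groups, and Ocm, oncomodulin, at 12.71, 15.26 and 14.08 FPKM against 10.18, 10.81 and 10.34 FPKM (-0.39, SE 0.10, limma adjusted p = 0.206). Of 11 proximal markers 9 were higher by value, with a median of 0.12; Ada, adenosine deaminase of the duodenum, was at 20.99, 12.09 and 23.53 FPKM against 37.68, 38.42 and 43.92 FPKM (1.09, SE 0.23, limma adjusted p = 0.119). All 5 tested genes of bile acid uptake and Fgf15 signalling were lower by value, none at an unadjusted p under 0.05. The bile acid and distal lists share Fabp6, Slc10a2, Slc51a and Slc51b, so their counts are not separate results. The labels do not give the segment sampled in each animal, and the part of these markers in the other results was not tested.

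Enzymes that handle vitamin A and foreign compounds were mostly lower by value, as were 6297 of all 11351 genes. In the retinoid list 3 of 12 members were higher by value, with 1 higher (8.33%, against 4.9% of all genes) and 4 lower (33.3%, against 6.2%) at an unadjusted p under 0.05, and Rdh7, a retinol dehydrogenase, was at 35.43, 39.53 and 35.18 FPKM in Sa and 16.92, 28.45 and 30.78 FPKM in Con-FMT (log2 -0.56, SE 0.19, limma adjusted p = 0.341). Of 37 xenobiotic enzymes 12 were higher by value, with 1 higher (2.7%) and 10 lower (27.0%) at an unadjusted p under 0.05, as for Gstt3, a glutathione transferase, at 43.31, 46.36 and 38.13 FPKM against 31.57, 33.13 and 35.49 FPKM (-0.34, SE 0.073, limma adjusted p = 0.14). Some members went the other way, with Scarb1 the highest of the retinoid list (0.765 in log2). In the xenobiotic list the highest was Cyp1a1, the cytochrome that the aryl hydrocarbon receptor induces, at 4.59, 3.92 and 3.88 FPKM against 20.90, 8.57 and 7.79 FPKM (1.26, SE 0.34, limma adjusted p = 0.222). Con-FMT 1 was the highest library by far, but the groups did not overlap.

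Genes of crypt renewal and DNA damage differed little. Of 32 genes of crypt proliferation 22 were higher by value, with a median log2 change of 0.03 and none at an unadjusted p under 0.05, and Pcna, the replication clamp, was at 154.08, 149.71 and 144.82 FPKM in Sa and 163.12, 146.13 and 167.80 FPKM in Con-FMT. The 19 targets of p53, a factor that DNA damage activates, had a median of -0.02, and the 24 stem cell and Notch genes one of 0.019. In the NOD-like receptor and inflammasome list 14 of 24 were higher by value, with 3 higher (12.5%, against 4.9% of all genes) and 2 lower (8.33%, against 6.2%) at an unadjusted p under 0.05. Nlrc5, a NOD-like protein that drives MHC class I genes, was at 3.57, 4.49 and 4.55 FPKM against 6.04, 5.05 and 6.16 FPKM (0.38, SE 0.12, limma adjusted p = 0.301), and Cxcl10, an interferon-induced chemokine that attracts T cells, at 0.78, 0.90 and 0.97 FPKM against 1.34, 2.38 and 2.03 FPKM. Cxcl10 averaged under 1 FPKM in Sa, so its values support nothing. The groups did not overlap for Nlrc5. Both genes belong to other lists.

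The AOS-donor transplants of set 2 were set beside Con-FMT and Sa. These contrasts share the Con-FMT or the Sa libraries with the main one, in which the 11 genes were chosen for being high in Con-FMT and low in Sa, so values between those groups follow in part from the choice and nothing is read from the counts. Against Sa, 11 of the 11 genes were higher by value in A10-FMT and 10 of the 11 in A100-FMT, with 2 called higher in A10-FMT (Irgm1 and Gm2446, where 0.696% of all genes were called higher and 1.42% lower) and 4 in A100-FMT (Ckb, Vim, Gm2446 and BGI_novel_G001431, where 2.2% were called higher and 1.31% lower). Against Con-FMT, 0 of the 11 were higher by value in A10-FMT and 1 in A100-FMT, with 3 called lower in A10-FMT (0.581% of all genes were called lower and 0.0793% higher) and 2 in A100-FMT (0.3% lower and 0.423% higher). Trim30a averaged 29.9 FPKM in A10-FMT and 31.5 FPKM in A100-FMT. Parp12 averaged 60.1 and 55.9 FPKM, and BGI_novel_G001431 4.22 and 12.9 FPKM. The interferon-stimulated list lay 0.276, -0.086 and -0.075 from the Sa mean in the A10-FMT libraries and 0.040, 0.190 and 0.184 in the A100-FMT libraries, all under the Con-FMT range. The GTPase list lay at 0.347, 0.375 and 0.315 in A10-FMT, above each Sa library (-0.069, 0.097 and -0.029), and at 0.232, 0.055 and 0.325 in A100-FMT.

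Sa and Con-FMT were also compared in set 1, with 2 and 3 libraries. The title and the description of 1 of those Sa libraries name different columns, and the values depend on that choice: 2011 genes (17.7%) were called higher and 1040 (9.17%) lower with the column of the title, and 42 (0.37%) and 3 (0.0265%) with that of the description, in limma fits of 23 libraries. By title 8 of the 11 genes were higher by value in set 1, with 6 called higher (Trim30a, Parp12, Oas3, Ifit2, Ly6a and Irgm1) and 2 called lower (Ckb and BGI_novel_G001431), and by description 9 were higher, with 5 called higher (those named but for Irgm1) and 0 lower. The interferon-stimulated list had a median log2 change of 0.58 by title and 0.51 by description in set 1, with 55 and 59 of 62 members higher by value, and the GTPase list 0.84 and 0.54. In other lists the sets differed by value: the median of the Paneth cell list was -0.05 and 0.011 in set 1, that of the enteroendocrine list 0.054 and 0.14, and that of the cell junction list 0.12 and 0.051. The difference between the sets passed the adjusted threshold for 1 gene of 11337, BGI_novel_G001431, with a larger effect in set 2 (0.00882%) and 0 genes with a smaller one (0.0%), beside 3893 genes at an unadjusted p under 0.05 in limma. The count at an unadjusted p was 1376 with the description column and 1068 with array quality weights. Ckb showed an interaction of 0.89 (SE 0.16, limma adjusted p = 0.0813), being at 415.58 and 554.80 FPKM in the set 1 Sa libraries and 372 ± 12.3 FPKM in set 1 Con-FMT (SD, n = 3).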

How the data were processed

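RNA was extracted with TRIzol and sequenced on an Illumina HiSeq. The authors deposited 1 table of FPKM values per gene over all libraries. The submitters' processing notes name mm10, and the aligner, counter and annotation are not given in the sources used here. FPKM is normalized for length and library total, so the table keeps no absolute depth, and the count-based test of the study could not be repeated. Of 19215 entries, 17725 were matched to a symbol by NCBI Gene number, 117 numbers were not, and 1373 carried BGI identifiers. Genes averaging 1 FPKM or more in set 2 (12 libraries) were fitted with limma 3.58.1 (R 4.3.3) on log2(FPKM + 1) with a mean per group and a variance trend, and p-values were adjusted by Benjamini-Hochberg over 11351 genes; 7864 entries were not tested. Standard errors (SE) and intervals come from that fit. For this comparison, 10 simulations were run with 200 changed genes among 11351 and noise drawn independently for each gene and library. In them 77.6%, 93.7% and 98.8% of log2 changes of 0.5, 1 and 2 were recovered, and 4.79% of calls were false. Noise shared by the genes of a library was not simulated.

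The text names the called genes with a symbol, genes without overlap up to 12 in a direction at an unadjusted p under 0.05, the 2 most abundant and the 3 lowest-p members of each list, and the genes of stained or blotted proteins. Genes outside this rule are said to be chosen after their values were seen. Exceptions are Igtp, Tgtp2, the called transcript without a symbol, nearly absent cell type markers and list members averaging under 1 FPKM in Sa. The comparison and the lists were chosen with earlier results of these data known, so lists are described by counts and medians. The labels do not say whether the same replicate numbers mark paired libraries, and the reported fit did not pair them. The correlations of deviations between same-numbered Sa and Con-FMT libraries were -0.207, 0.026 and -0.285. Deviations from the mean of so few libraries cannot settle whether they were paired. In set 1 the column named by the title was used for the Sa library with 2 candidate columns. Pseudocount, filter, scaling, set of libraries, weights, replicate block and each left-out library were varied. Columns of A10-FMT and A100-FMT of set 1 entered only the fit of 23 libraries. Figures were drawn with matplotlib 3.10.9.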

Additional observations from a re-analysis of the deposited data

Results flagged for a closer look

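The effect of Con-FMT on BGI_novel_G001431, a transcript known here only by its BGI identifier and named although the rule for naming genes leaves such transcripts out, differed between the sets by 2.54 on the log2 scale (SE 0.35, limma interaction adjusted p = 0.0104). With array quality weights no gene passed in this comparison (0 genes), with the description column 2 did, and without the first Sa library of set 1, which leaves a lone Sa library there, 6246 did. In set 2 it was at 4.19, 2.28 and 3.01 FPKM in Sa and 9.33, 10.15 and 9.10 FPKM in Con-FMT, and in set 1 at 12.93 and 12.82 FPKM in Sa and 5.71, 3.41 and 6.74 FPKM in Con-FMT. It was higher in Con-FMT in every set 2 library and, with the title column for set 1, lower in every set 1 library. With the description column 0 of the 11 called genes were called lower in set 1, against 2 by title. Across set 2 the transcript was at 3.84 to 4.84 FPKM in A10-FMT and 11.70 to 14.21 FPKM in A100-FMT.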

How the results depend on the processing

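The 11 calls of Con-FMT vs. Sa became 3 with all genes above 0 tested, 6 with the 6 libraries alone, 4 and 6 in fits of 23 libraries with the title or the description column, and 35 (29 higher, 6 lower) with array quality weights; leaving out single libraries gave 0 to 5. The replicate block left 1 call in the set 2 comparison and gave 2 in the comparison of the sets. The labels do not say whether the replicate numbers pair libraries. All 11 stayed higher under every setting that tested them. The 78 genes with a ratio of 2 became 118 with a pseudocount of 0.1, 32 at a mean of at least 5 FPKM and 202 at a ratio of 1.5, and 82 to 101 with a library left out. The 1961 genes without overlap became 2688 to 3318 with a library left out, where smaller groups overlap less by construction; the pseudocount does not enter that count. The median of the interferon-stimulated list stayed between 0.32 and 0.35. Between the sets 3893 genes differed at an unadjusted p under 0.05 in the reported limma fit. That became 1376 with the description column and 1068 with array weights. The 1 gene past the adjusted threshold became 2 with the description column and 0 with array weights. Leaving out 1 library gave 1 to 6246, the latter without the first Sa library of set 1, when the other Sa library stands alone and is assumed to vary like the rest. With a library left out, signs turned for Ifi47 (-0.32, range -1.0 to 0.99), Defa20 (0.42, -0.6 to 1.6), Defa42 (-0.46, -2.6 to 1.9, and 0.68 with array weights) and Vil1 (-0.024, -0.066 to 0.04); Defa20 reached -0.6 without Con-FMT 3 and -0.47 without Sa 3, Defa42 1.9 and 1.5 without Con-FMT 1 and Sa 1, and Vil1 0.04 and 0.0043 without Con-FMT 1 and Sa 2. The cause of these changes was not tested. With groups of 3, 77.6%, 93.7% and 98.8% of simulated log2 changes of 0.5, 1 and 2 were recovered, and smaller changes were not simulated. The simulated noise was independent between genes, and 200 genes were changed, whereas 11 were called in the data. These shares therefore do not give the share of real changes of that size that was called. Read depth is unknown, and its part in what can be detected was not tested.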

Other observations

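Goblet cell genes divided in set 2. Muc2, the gel-forming mucin of the mucus layer, was at 331.20, 330.33 and 352.67 FPKM in Sa and 279.03, 306.34 and 312.58 FPKM in Con-FMT (log2 -0.18, SE 0.055, limma adjusted p = 0.289), without overlap, while 9 of the 12 tested goblet cell markers were higher by value, with a median of 0.12. Zg16, a lectin that keeps bacteria from the epithelium, was at 2271.24, 2656.41 and 3068.99 FPKM against 2966.35, 3265.98 and 3009.66 FPKM. Of 21 genes of heat shock and ER stress 18 were higher by value, with a median of 0.11 and 4 at an unadjusted p under 0.05 (all higher, 19.0%, against 4.9% of all genes): Hspe1, a mitochondrial chaperonin, was at 206.99, 212.68 and 197.37 FPKM against 248.94, 226.36 and 245.70 FPKM, and Atf3, a stress-induced transcription factor, at 6.10, 6.21 and 7.88 FPKM against 10.39, 8.18 and 11.14 FPKM. Of 13 clock genes 11 were lower by value, as in Per2, a period gene, at 4.04, 3.04 and 3.63 FPKM against 2.38, 2.04 and 3.02 FPKM; the time of day of sampling is not given in the sources used here. None of these genes passed the adjusted threshold.

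Sa 1 and Con-FMT 3, the libraries with the high defensin values, also deviated together from their group means over all genes tested, with r = 0.289 across genes, the highest of the 9 Sa and Con-FMT pairs. Genes are not independent replicates, so the value has no test.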
